A study of Homo sapiens with 12 samples.

Results

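Aldo-keto reductases, carbonyl reductases and biliverdin reductases were examined in A375, an established human melanoma cell line, through 10 genes chosen by symbol: AKR1A1, AKR1B1, AKR1B10, AKR1C1, AKR1C2, AKR1C3, BLVRA, BLVRB, CBR1 and CBR3. All 10 were found among the 4918 genes analysed here. The symbols of these genes run from A1BG to FAM46B. Ranks among all genes and shares of all genes below therefore do not cover symbols later in the alphabet. RNA from 12 samples had been sequenced, 3 each of control cells with no treatment named, cells given SB-3CT (a small-molecule inhibitor of the gelatinases MMP2 and MMP9), cells given interferon gamma (IFNγ), and cells given both, all for 24 h. The treatment description mentions a vehicle, and the doses used for these samples are not given in the sources used here. All samples came from a single cell line without a genetic change, and the labels do not say whether the 3 samples of a group were separate cultures, so the p-values measure the spread between these samples. The members were listed with earlier results of these data known: AKR1C1 and BLVRB had already been seen to be higher in cells given both agents than in cells given IFNγ. That comparison is therefore described below without a test for any of the 10.

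These enzymes use NADPH to reduce carbonyl groups or related double bonds. Aldo-keto reductases (AKR) and carbonyl reductases (CBR) turn reactive aldehydes and ketones, among them products of lipid peroxidation, sugars, steroids, prostaglandins and drugs, into alcohols, and biliverdin reductases (BLVR) reduce the green pigment left when haem is broken down. Several of the genes, the AKR1C genes, AKR1B10, CBR1 and CBR3 among them, are known targets of NRF2, a transcription factor that responds to electrophiles and binds the antioxidant response element.

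Expression was given as FPKM (fragments mapped to a gene, relative to its length and to all mapped fragments of the sample) on the scale log2(FPKM + 1), on which the highest value was 12.2 and each sample summed to between 121928 and 129692 FPKM. The number of reads is not stated. From the steps that single reads leave in the lowest values, the samples' depths lay between 87.2% and 149.9% of the mean control depth, with all 66 pairs of samples within 0.05 (log2) of a single set of depths. The IFNγ label was borne out by CXCL10, an IFNγ-induced chemokine gene, which was at most 0.050 FPKM without IFNγ and at least 78.7 FPKM with it. Among 8 melanoma markers in control cells, CD63, ERBB3 and CSPG4 were abundant, at 9.36, 5.86 and 5.63 on the log2 scale. EDNRB (2.77) and BCAN (2.55) lay between, and BIRC7 (0.39), DCT (0.35) and CAPN3 (0.32) were low. Markers of lymphoid, myeloid, epithelial, fibroblast and endothelial cells summed to at most 1.27 FPKM per list in any sample. Only 2 of 6 lymphoid, 2 of 3 myeloid and 2 of 3 epithelial markers were among the genes analysed. In bulk RNA, a change in the share of cells that express a gene and a change in RNA per cell cannot be told apart.

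AKR1C1, AKR1C2 and AKR1C3 lie side by side on chromosome 10 (hg19), from 5005445 to 5025475, from 5029967 to 5060223 and from 5077546 to 5149878, with AKR1C2 on the minus strand and the others on the plus strand. The sequences upstream of AKR1C1 and AKR1C2 are shown because these genes changed in the same direction in each comparison as deposited and are near-identical. Of the 250 bases before each start (RefSeq, GRCh38.p14, chr10:4963165-4963414 on the plus strand and chr10:5003858-5004107 on the minus strand), 246 aligned, and 99.6% of the aligned bases were identical. Capitals mark bases that differed or had no partner, which lie only at the ends of the windows.
AKR1C1: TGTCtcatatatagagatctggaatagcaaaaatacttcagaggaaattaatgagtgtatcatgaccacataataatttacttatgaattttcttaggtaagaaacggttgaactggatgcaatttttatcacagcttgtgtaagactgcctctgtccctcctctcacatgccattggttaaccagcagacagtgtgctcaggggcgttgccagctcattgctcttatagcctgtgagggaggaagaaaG
AKR1C2: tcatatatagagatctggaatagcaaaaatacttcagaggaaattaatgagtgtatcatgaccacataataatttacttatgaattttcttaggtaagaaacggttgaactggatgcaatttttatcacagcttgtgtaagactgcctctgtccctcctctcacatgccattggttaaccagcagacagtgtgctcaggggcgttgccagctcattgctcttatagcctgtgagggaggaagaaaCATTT
The windows upstream of the 2 listed starts of AKR1C3 were 76.8% and 78.6% identical to that of AKR1C1 over 241 and 234 aligned bases. In the transcripts, AKR1C1 and AKR1C2 were 97.2% identical over 3209 aligned bases, and AKR1C1 and AKR1C3 90.1% over 1185. Of all stretches of 100 bases in the AKR1C2 transcript, 25.6% were also found in AKR1C1 and 2.31% in AKR1C3, so some reads could have come from either gene and the split between AKR1C1 and AKR1C2 is uncertain. AKR1C3 shared 6.62% of its stretches with AKR1C2 and 1.75% with AKR1C1. The pair AKR1B1 and AKR1B10 (74.3% identical) and the pair CBR1 and CBR3 (78.4%) shared no stretch of this length.

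Of the 10 genes, 8 had an upstream sequence in the RefSeq table, AKR1B10 and CBR3 being the exceptions. The core of the antioxidant response element, searched as TGACNNNGC on both strands, was found in the 250-base window of 1 gene, CBR1, and in 10.9% of all 35116 windows in that table. The match in CBR1 began 159 bases before the start on the opposite strand, and it is set in capitals in the CBR1 window (chr21:36069774-36070023, GRCh38.p14, plus strand).
CBR1: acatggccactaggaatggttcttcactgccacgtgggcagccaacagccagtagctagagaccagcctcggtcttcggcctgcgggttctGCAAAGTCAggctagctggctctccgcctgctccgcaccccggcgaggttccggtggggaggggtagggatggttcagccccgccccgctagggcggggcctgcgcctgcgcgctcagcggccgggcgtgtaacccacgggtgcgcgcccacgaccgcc
The interferon-activated element searched as TTCNNNGAA, also on both strands, matched in 0 of the 8 genes' windows and in 6.57% of all windows. The absence of a match says only that these letters do not occur in this window.

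In control cells the genes covered a wide range of expression. AKR1B1, aldose reductase, which carries out the opening step of the polyol pathway, was the most abundant at 159.1 ± 8.27 FPKM (SD, n = 3). BLVRB (85.3 ± 8.61 FPKM) and CBR1 (83.4 ± 17.1 FPKM) followed, and their samples overlapped. BLVRA (41.5 ± 1.44 FPKM), AKR1A1 (37.3 ± 0.18 FPKM), AKR1C3 (28.5 ± 0.91 FPKM), AKR1C2 (17.0 ± 1.74 FPKM), CBR3 (13.0 ± 0.62 FPKM) and AKR1C1 (7.36 ± 0.50 FPKM) came next, each without overlap with its neighbour. AKR1B10, an aldehyde and retinal reductase, was close to the floor at 0.65 ± 0.08 FPKM. AKR1B1 and AKR1B10 kept the top and bottom places in all 4 groups. CBR3 moved from the eighth place in control cells to the fifth with IFNγ, where its samples overlapped those of AKR1A1.

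**Figure D1:**
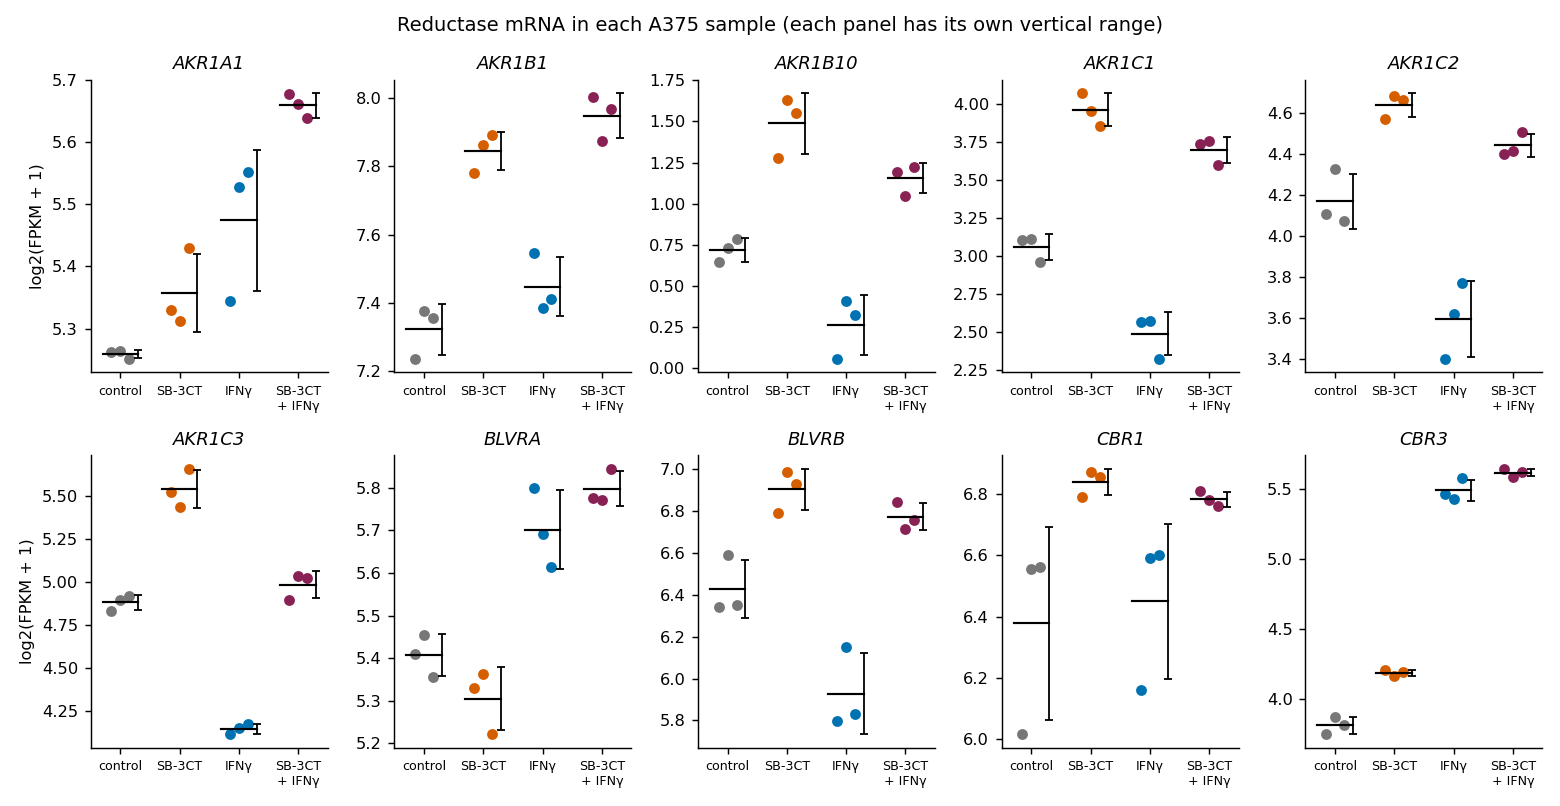
Expression of the 10 reductase genes in each of the 12 samples, as log2(FPKM + 1) on the vertical axis of each panel, by group on the horizontal axis. Points are samples, horizontal bars are means and error bars are SD (n = 3). In AKR1C1, AKR1C3 and BLVRB the IFNγ samples are the lowest and the SB-3CT samples are among the highest, whereas in CBR3 both groups with IFNγ lie far above both groups without it.

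SB-3CT alone was followed by higher expression of most of these genes. Of the 10, 7 were higher than in control cells at an adjusted p-value under 0.05 in limma and 0 were lower, where 5.37% of all 4918 genes rose and 6.87% fell. The median difference of the 10 was 0.47 on the log2(FPKM + 1) scale, against -0.01 over all genes. None of these 6 samples enters the comparison in which AKR1C1 and BLVRB had been seen before. For the other genes the comparison that led to their choice is not recorded. If it was this one, their calls and the median are not independent of that choice. The 3 SB-3CT samples all lay above the 3 controls in 9 of the 10 genes, BLVRA being the exception, and this held in 14.2% of all genes.

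The 3 AKR1C genes encode hydroxysteroid dehydrogenases. AKR1C1, which inactivates progesterone, was at 7.62, 7.67 and 6.79 FPKM in the controls and at 15.8, 14.5 and 13.5 FPKM with SB-3CT. The groups were far apart, with a ratio of means of 1.99 and a log2 difference of 0.90 (standard error 0.08, adjusted p = 0.00201 from limma), the eighth largest rise among all genes. AKR1C3, which makes active androgens and prostaglandin F, was at 27.5, 28.8 and 29.3 FPKM in the controls and at 45.1, 42.3 and 49.5 FPKM with SB-3CT. The log2 difference of AKR1C3 was 0.66 (standard error 0.06, adjusted p = 0.00285 from limma). AKR1C2, which inactivates dihydrotestosterone, rose less, from 16.2, 19.0 and 15.9 FPKM to 22.8, 24.7 and 24.3 FPKM (log2 difference 0.47, standard error 0.07, adjusted p = 0.0146 from limma). Because AKR1C1 and AKR1C2 can share reads, the FPKM of all 3 genes were also summed. The sum was 52.9 ± 2.24 FPKM in the controls and 84.2 ± 2.94 FPKM with SB-3CT (SD, n = 3), a ratio of 1.59. The share of AKR1C1 in this sum was 13.9% ± 0.89 in the controls and 17.4% ± 1.77 with SB-3CT.

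Both AKR1B genes rose as well. AKR1B1 was at 149.6, 164.9 and 162.8 FPKM in the controls and at 219.1, 231.9 and 236.5 FPKM with SB-3CT (log2 difference 0.52, standard error 0.05, adjusted p = 0.00410 from limma), so the most abundant of the genes reached 1.44 times its control mean. AKR1B10 was at 0.56, 0.66 and 0.72 FPKM in the controls and at 1.43, 2.10 and 1.93 FPKM with SB-3CT. Its ratio of means was 2.81, while its log2 difference was 0.77 (standard error 0.10, adjusted p = 0.00897 from limma), since adding 1 to FPKM compresses the change of a gene this low. With 0.1 added in place of 1 its difference was 1.35. AKR1A1, aldehyde reductase, was at 37.4, 37.4 and 37.1 FPKM in the controls and at 39.2, 38.7 and 42.1 FPKM with SB-3CT. The samples of AKR1A1 did not overlap, but the log2 difference of 0.10 (standard error 0.04, adjusted p = 0.184 from limma) did not pass the threshold.

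Of the 2 biliverdin reductases, BLVRB rose with SB-3CT and BLVRA did not pass the test. BLVRB, which also acts as a flavin reductase, was at 80.1, 95.3 and 80.6 FPKM in the controls and at 109.8, 125.6 and 120.9 FPKM with SB-3CT (log2 difference 0.47, standard error 0.08, adjusted p = 0.0176 from limma). BLVRA, the main biliverdin reductase of the adult, was at 41.5, 42.9 and 40.0 FPKM in the controls and at 39.2, 40.2 and 36.3 FPKM with SB-3CT. These BLVRA samples overlapped, and the log2 difference of -0.10 (standard error 0.05, adjusted p = 0.229 from limma) did not pass. Of the carbonyl reductases, CBR3 rose from 12.4, 13.6 and 13.0 FPKM to 17.5, 16.9 and 17.2 FPKM (log2 difference 0.38, standard error 0.05, adjusted p = 0.00897 from limma). CBR1, which reduces prostaglandins and anthracycline drugs, was at 63.7, 93.1 and 93.5 FPKM in the controls and at 109.7, 116.2 and 114.8 FPKM with SB-3CT. Control replicate 1 was well below the other controls, and the log2 difference of 0.46 (standard error 0.14) had an adjusted p-value of 0.0729 in limma. Without that replicate the difference was 0.28 (adjusted p = 0.0518 from limma), and among genes with a mean of at least 1 FPKM the call for CBR1 passed (adjusted p = 0.0166 from limma).

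The calls of AKR1B1, AKR1C1 and AKR1C3 with SB-3CT were kept in each of the 6 fits that left out a sample, with adjusted p-values from 0.00776 to 0.0428 in limma. In 4 of these fits the adjusted p-value rose above 0.05 for AKR1B10 (0.0510 to 0.0613), for AKR1C2 (0.0658 to 0.0809) and for BLVRB (0.0762 to 0.0916), and in 2 of them for CBR3 (0.0505 and 0.0548). The number of genes called was 3 without SB-3CT replicate 3 or without control replicate 3, and 4 without control replicate 1.

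With IFNγ present, the difference between SB-3CT and no SB-3CT is a description only, since it was known when the genes were chosen. AKR1C1 was at 4.94, 4.95 and 4.02 FPKM with IFNγ and at 12.3, 12.5 and 11.1 FPKM with both agents, 2.59 times the IFNγ mean. BLVRB was at 54.7, 70.0 and 56.0 FPKM with IFNγ and at 113.9, 104.1 and 107.2 FPKM with both, 1.80 times the IFNγ mean. AKR1B10, at 0.04, 0.33 and 0.25 FPKM with IFNγ, was at 1.29, 1.07 and 1.33 FPKM with both. The differences of AKR1C2 (0.84, standard error 0.10), AKR1C3 (0.84, standard error 0.06), AKR1B10 (0.89, standard error 0.10) and AKR1C1 (1.21, standard error 0.09) placed these 4 genes, with BLVRB (0.85, standard error 0.10), among the 10 largest rises of all genes on the log2 scale. AKR1B1 differed by 0.50 (standard error 0.06), CBR1 by 0.33 (standard error 0.12), AKR1A1 by 0.18 (standard error 0.06), CBR3 by 0.13 (standard error 0.05) and BLVRA by 0.10 (standard error 0.06). In 9 of the 10 genes the samples with both agents all lay above those with IFNγ, against 9.35% of all genes, and BLVRA was the gene that overlapped.

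The 2 sets of SB-3CT differences, with and without IFNγ, come from separate samples. They were 1.21 and 0.90 for AKR1C1, 0.84 and 0.47 for AKR1C2, 0.84 and 0.66 for AKR1C3, and 0.85 and 0.47 for BLVRB. For AKR1B1 they were close, at 0.50 and 0.52, with a difference between them of -0.02 (standard error 0.08). CBR3 was the gene whose difference was smaller with IFNγ by the widest margin, -0.25 (standard error 0.07). These gaps were not tested, since they contain the comparison by which the genes were known. They also sit on a shift of the whole table: with IFNγ present the median SB-3CT difference of genes with a mean of at least 1 FPKM was -0.20, and without IFNγ it was -0.03. After scaling by the median ratio (every value divided by the sample's median ratio to the average sample), which brings the median with IFNγ to 0.00, AKR1C1 differed by 1.43 with IFNγ, BLVRB by 1.08, AKR1B1 by 0.74 and BLVRA by 0.33. Scaling widened the gap from 0.31 to 0.50 for AKR1C1, from 0.38 to 0.57 for AKR1C2, from 0.18 to 0.38 for AKR1C3, from 0.37 to 0.58 for BLVRB and from 0.20 to 0.40 for BLVRA. The gap for CBR3 was then -0.04 and that for AKR1B1 0.19.

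**Figure D2:**
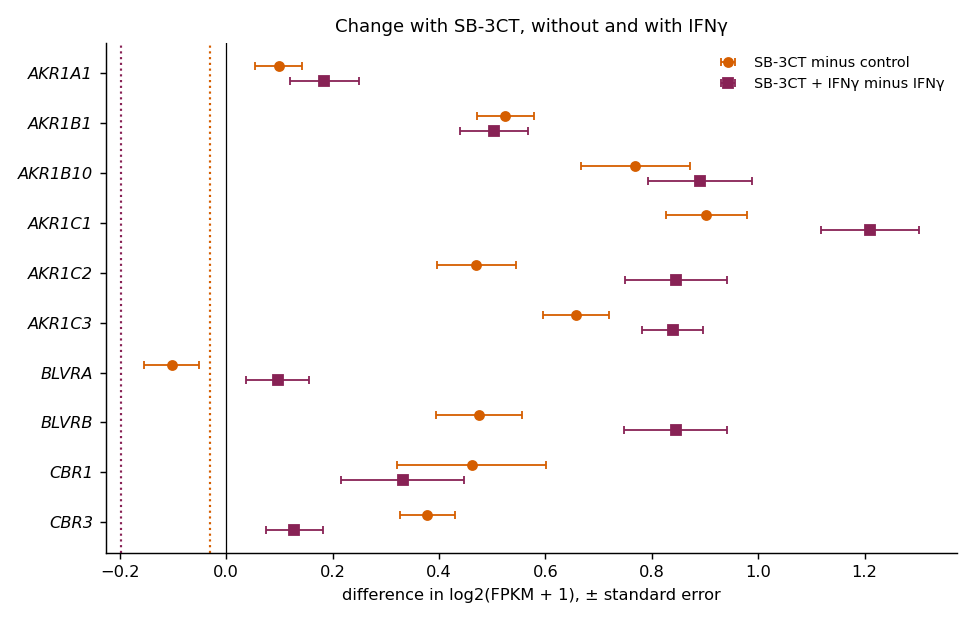
Difference in log2(FPKM + 1) with SB-3CT on the horizontal axis for each of the 10 genes, without IFNγ (circles, SB-3CT minus control) and with IFNγ (squares, SB-3CT and IFNγ minus IFNγ). Bars are standard errors from limma (n = 3 samples per group) and dotted lines are the medians of genes with a mean of at least 1 FPKM, -0.03 and -0.20. AKR1C1 has the largest difference of the 10 in both, and BLVRA is the only gene below 0, without IFNγ.

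IFNγ alone moved the genes in different directions. AKR1C1 and BLVRB are given as values only in both comparisons of IFNγ, because the IFNγ groups also enter the comparison in which they were seen before. Which comparison led to the choice of the other 8 genes is not recorded, and if it was the same one, the tests of IFNγ given here share samples with it. Their p-values are therefore not independent of the choice of genes. Of the other 8 genes, 2 rose and 3 fell against control cells at an adjusted p-value under 0.05 in limma, where 8.46% of all genes rose and 11% fell. The control samples are the same as those set against SB-3CT.

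CBR3 had the largest change. It was at 42.2 to 46.8 FPKM in the 3 IFNγ samples (43.2, 42.2 and 46.8 FPKM in order of replicate number), 3.39 times the control mean, with a log2 difference of 1.68 (standard error 0.06, adjusted p = 1.22e-05 from limma). BLVRA rose to 54.7, 50.7 and 48.0 FPKM (log2 difference 0.29, standard error 0.06, adjusted p = 0.0172 from limma). AKR1C3 fell to 16.3, 16.8 and 17.1 FPKM, 0.59 times the control mean (log2 difference -0.74, standard error 0.04, adjusted p = 0.000140 from limma), and none of its IFNγ samples came near the controls. AKR1C2 fell to 9.57, 11.3 and 12.6 FPKM (log2 difference -0.57, standard error 0.11, adjusted p = 0.0174 from limma). AKR1B10 fell to the 0.04 to 0.33 FPKM given above, a log2 difference of -0.46 (standard error 0.09, adjusted p = 0.0207 from limma) that had an adjusted p-value of 0.0670 with 0.1 added to FPKM. AKR1C1 and BLVRB were lower than every control in all 3 IFNγ samples, with differences of -0.57 (standard error 0.09) and -0.50 (standard error 0.12), and 22% of all genes were lower in this way. The summed FPKM of the 3 AKR1C genes was 32.5 ± 1.51 with IFNγ, 0.61 times the control sum.

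AKR1A1 (0.22, standard error 0.06, adjusted p = 0.0577 from limma), AKR1B1 (0.13, standard error 0.06, adjusted p = 0.226 from limma) and CBR1 (0.07, standard error 0.19, adjusted p = 0.843 from limma) did not pass with IFNγ alone. CBR1 was at 70.4, 95.4 and 96.1 FPKM with IFNγ, with replicate 1 again the lowest, and leaving out a sample moved its difference from -0.11 to 0.22. AKR1A1 passed without IFNγ replicate 1 (adjusted p = 0.00756 from limma). The calls of CBR3 and AKR1C3 were kept in all 6 fits that left out a sample. That of AKR1B10 was lost in 4 of them (adjusted p from 0.0527 to 0.0802 in limma), those of AKR1C2 (0.0547 and 0.0604) and BLVRA (0.0643 and 0.0710) in 2 each. The number of genes called was 2 without control replicate 1, and 3 without control replicate 2 or 3.

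In cells that also received SB-3CT, IFNγ raised 3 of the 8 tested genes and lowered 2 (adjusted p-value under 0.05 in limma), where 7.85% of all genes were higher and 32.7% were lower. After scaling by the median ratio, 5 of the 8 were higher (AKR1B1, at 0.35, and CBR1, at 0.19, in addition) and 1, AKR1C3, was lower, where 13.4% of all genes were higher and 11.1% were lower. CBR3 rose from 17.2 ± 0.29 to 48.2 ± 0.93 FPKM (SD, n = 3), a log2 difference of 1.43 (standard error 0.03, adjusted p = 2.68e-06 from limma). BLVRA rose from 38.6 ± 2.02 to 54.7 ± 1.59 FPKM (log2 difference 0.49, adjusted p = 0.00100 from limma) and AKR1A1 from 40.0 ± 1.81 to 49.5 ± 0.70 FPKM (log2 difference 0.30, adjusted p = 0.00285 from limma). AKR1C3 fell from 45.6 ± 3.64 to 30.7 ± 1.66 FPKM (log2 difference -0.55, adjusted p = 0.00209 from limma), a difference of -0.31 after scaling (adjusted p = 0.0277 from limma). On the deposited scale, AKR1C3 with both agents was close to its control level of 28.5 FPKM. After scaling, its rise of 0.69 from control to SB-3CT exceeded the fall of 0.31, so its mean stayed above control. AKR1C1, at 11.1 to 12.5 FPKM with both agents, was above all of its control samples. AKR1C2 fell by 0.20 (standard error 0.05, adjusted p = 0.0210 from limma), a call lost in 4 of the 6 fits that left out a sample (adjusted p from 0.0622 to 0.0712 in limma) and with the replicate number as a block (0.0520). The median of genes with a mean of at least 1 FPKM was -0.21 in this comparison. After scaling by the median ratio, the difference of AKR1C2 was 0.04 (adjusted p = 0.693 from limma), and those of CBR1 (-0.06 as deposited, 0.19 scaled) and BLVRB (-0.13 as deposited, 0.12 scaled) also changed sign.

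**Figure D3:**
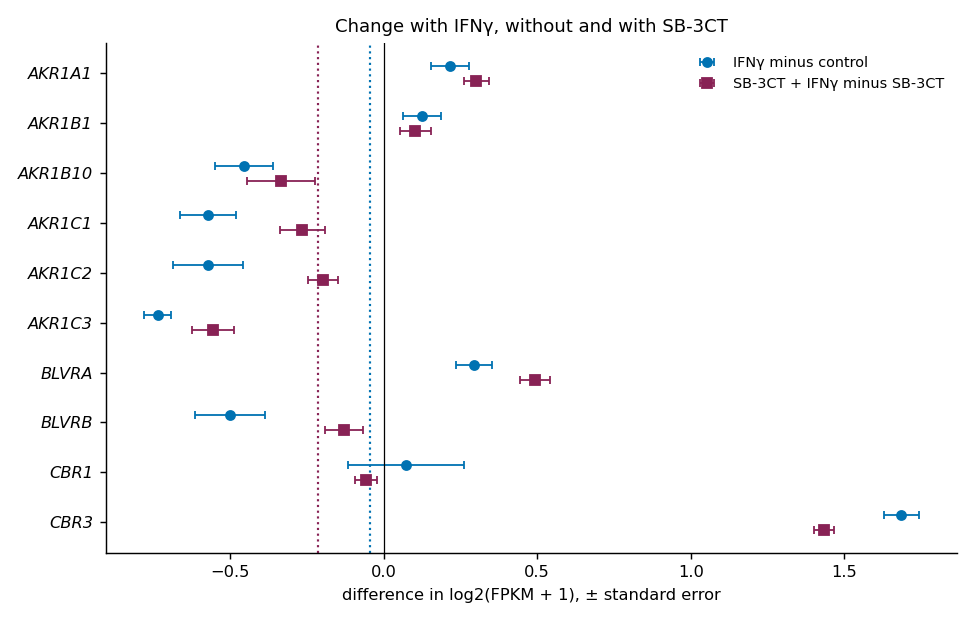
Difference in log2(FPKM + 1) with IFNγ on the horizontal axis for each of the 10 genes, without SB-3CT (circles, IFNγ minus control) and with SB-3CT (squares, both agents minus SB-3CT). Bars are standard errors from limma (n = 3 samples per group) and dotted lines are the medians of genes with a mean of at least 1 FPKM, -0.04 and -0.21. CBR3 lies above 1.4 in both comparisons, and the 3 AKR1C genes, AKR1B10 and BLVRB lie below 0 in both on the deposited scale. With SB-3CT present, AKR1C2 and BLVRB are above 0 after scaling by the median ratio. AKR1C1 is then at -0.03, AKR1B10 at -0.19 and AKR1C3 at -0.31.

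**Figure D4:**
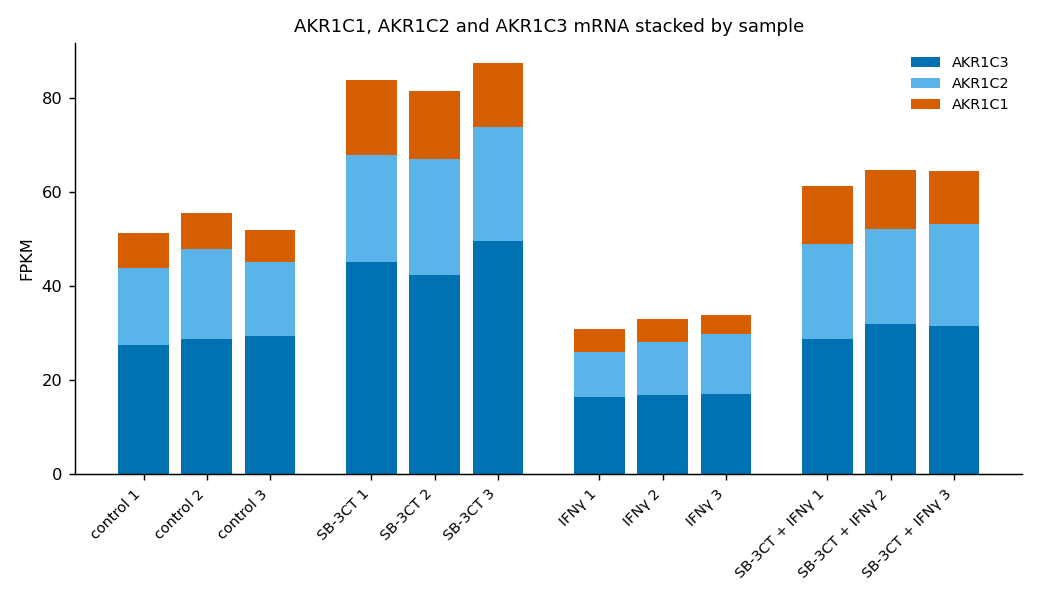
FPKM of AKR1C3, AKR1C2 and AKR1C1 stacked for each of the 12 samples, with the height of a bar as the summed FPKM on the vertical axis. The sum has a mean of 52.9 in control cells, 84.2 with SB-3CT, 32.5 with IFNγ and 63.5 with both, and the samples of the 4 groups do not overlap.

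Related genes were counted in lists written by hand with earlier results known, and only symbols up to FAM46B could be counted. Of 12 other AKR and CBR genes, 8 were found and only AKR7A2 and CBR4 had a mean of at least 1 FPKM. With SB-3CT, 0 of the 8 were higher and 1 was lower. That gene was CBR4, a mitochondrial carbonyl reductase that also takes part in fatty acid synthesis, which fell from 5.60, 5.72 and 5.84 FPKM to 4.06, 3.62 and 3.68 FPKM (log2 difference -0.49, standard error 0.07, adjusted p = 0.0109 from limma). CBR4 was also lower with IFNγ, at 3.76, 3.68 and 3.87 FPKM (adjusted p = 0.00261 from limma). CBR4 thus moved opposite to CBR3 with either agent. Of 20 other carbonyl-handling reductases found, 2 were higher with SB-3CT (DHRS7B, 0.27, and DHRS4, 0.16) and 2 lower (CRYZ, quinone reductase, -0.44, and DHRS3, a retinal reductase, -0.35). Of all genes, 12.2% were called in either direction. The median of the list was -0.10.

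Among 13 NRF2-linked genes found, 4 were higher with SB-3CT and 1 was lower, with a median of 0.05, beside 5.37% of all genes higher and 6.87% lower. As the symbols analysed end at FAM46B, NRF2-linked genes later in the alphabet are missing from this list. EPHX1, microsomal epoxide hydrolase, rose from 11.5 ± 0.87 to 19.0 ± 1.24 FPKM (SD, n = 3, log2 difference 0.68, adjusted p = 0.00429 from limma). CYP4F11 (0.58) and ABHD4 (0.41) rose as well, and catalase (CAT) differed by -0.22 (adjusted p = 0.0182 from limma). Under IFNγ, SB-3CT left 1 of these 13 genes higher and 4 lower, where 6.41% of all genes were higher and 31.5% lower, and EPHX1 differed by 0.15 (adjusted p = 0.199 from limma). After scaling by the median ratio 3 were higher and 2 lower, where 15.5% of all genes were higher and 16.5% lower. The counts of this list thus moved with those of all genes. The difference of EPHX1 was then 0.37. Of 10 genes of haem synthesis and transport found, 1 was higher with SB-3CT and 0 lower, beside the same 5.37% and 6.87% of all genes. It was ALAS1, the rate-limiting enzyme of haem synthesis, which went from 32.0 ± 1.33 to 62.8 ± 2.56 FPKM (log2 difference 0.95, standard error 0.05, adjusted p = 0.000176 from limma). With IFNγ, ALAS1 was at 29.5 ± 1.43 FPKM, and with both agents at 41.5 ± 1.56 FPKM (SD, n = 3).

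**Figure D5:**
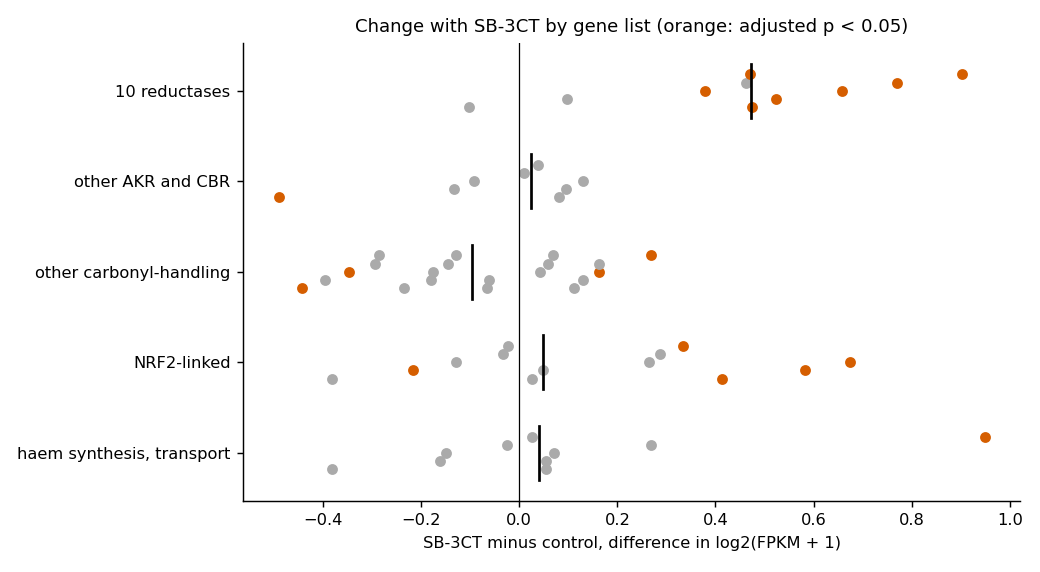
Difference in log2(FPKM + 1) between SB-3CT and control on the horizontal axis for the 10 reductases and the members found of 4 related lists, with vertical bars at the list medians and points spread vertically only for legibility. Orange points have an adjusted p-value under 0.05 in limma (n = 3 per group). The 10 reductases have a median of 0.47, and the medians of the other lists lie between -0.10 and 0.05. The 10 and the lists were chosen with earlier results known, so this gap is a description only. Most of the other AKR and CBR genes had a mean under 1 FPKM, where this scale leaves little room for change.

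Across the 12 samples, the pattern of AKR1C1 was most like those of ARMC10 (Pearson r = 0.966), EMC3 (0.954) and ELP5 (0.931) among 3168 other genes with a mean of at least 1 FPKM. That of BLVRB was most like ELP5 (0.962), EMC3 (0.952) and C11orf98 (0.947). These correlations are descriptions over 12 samples that share the 4 treatment groups. ELP5 and EMC3 appeared in both sets, but moved over a far smaller range, for EMC3 from 6.09 with IFNγ to 6.60 with SB-3CT on the log2 scale.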

How the data were processed

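RNA libraries of 12 samples were prepared by Illumina protocols. Per the study's methods, paired-end reads were aligned to hg19 with HISAT2 at default settings and FPKM were computed with StringTie, for which the submitters' processing notes give versions 2.0.5 and 1.3.3. The values deposited by the authors are named FPKM and were read as log2(FPKM + 1), from their range and column totals. Since the planned design expected linear FPKM, no further logarithm was taken. No strand setting was given. Symbols ran from A1BG to FAM46B, 4918 genes. Comparisons of 3 against 3 samples were fitted over all genes with limma 3.58.1 in R 4.3.3 (lmFit, eBayes with trend, two-sided), with Benjamini-Hochberg adjustment over the 4918 genes. No scaling between samples was added. On simulated data for SB-3CT against control, 98.5% of 200 genes changed by 1 (log2) were recovered, with 9 other genes called among 4918. The largest change of the 10 members in this comparison was 0.90 (AKR1C1), and recovery of changes smaller than 1 was not measured. Members, lists and named genes were chosen with earlier results of these data known. The named genes were the 10 members, up to 3 rises and 3 falls per list with SB-3CT, the 3 genes most correlated with AKR1C1 and with BLVRB, and CXCL10. Same-numbered samples deviated together with correlations from -0.395 to 0.172, so no pairing by number was seen over the genes as a whole. These correlations cannot exclude a batch shared by same-numbered samples. Gene positions came from GENCODE release 44 lifted to GRCh37. Upstream sequences came from RefSeq (GRCh38.p14). Alternatives were a pseudocount of 0.1, a mean of at least 1 FPKM, median-ratio scaling, quantile normalization, all groups in one fit, a replicate block, other variance models, and each sample left out.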

Additional observations from a re-analysis of the deposited data

How the results depend on the processing

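With each sample left out in turn, the number of the 10 genes called with SB-3CT ranged from 3 to 7, that of the 8 tested genes called with IFNγ alone from 2 to 6, and that with IFNγ in SB-3CT-treated cells from 4 to 6. The number that did not overlap for SB-3CT under IFNγ ranged from 9 to 10. Of 507 recomputed differences of single genes, 441 kept their direction and their side of the threshold (or, untested, moved by less than the SD between replicates), and 6 changed sign. Of these, 3 were AKR1C2 (0.042), BLVRB (0.12) and CBR1 (0.19) for both agents against SB-3CT after scaling by the median ratio, which moves the median of all genes with a mean of at least 1 FPKM from -0.21 to 0.00. The others were CBR1, not called as deposited, at 0.027 in the same comparison after quantile normalization, and, for IFNγ against control, at -0.0029 without IFNγ replicate 3 and -0.11 without control replicate 1, in a range from -0.11 to 0.22 over the samples left out. In a fit with a replicate block, 7 genes were called with SB-3CT, 5 with IFNγ and 4 with IFNγ in SB-3CT-treated cells, against 7, 5 and 5 without it, and the call lost was that of AKR1C2. The same counts of 7 with SB-3CT were found under the other 7 alternatives that kept all samples. The genes were not always the same: with a mean of at least 1 FPKM, AKR1B10 was filtered out and CBR1 was called. Fits without a sample have fewer samples, and beyond that the cause was not tested. Read numbers are not known, and counting error for the low AKR1B10 cannot be given.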

Other observations

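CBR3-AS1, an antisense RNA gene chosen after its values were seen, overlaps CBR3 on the opposite strand of chromosome 21 (hg19, 37504065 to 37548113, with CBR3 from 37507377 to 37518860). It was at 0.74, 0.64 and 0.56 FPKM in control cells, at 1.28, 0.94 and 1.29 FPKM with IFNγ, and at 0.92, 0.82 and 1.07 FPKM with both agents. With SB-3CT alone it was at 0.60, 0.49 and 0.30 FPKM, overlapping the controls. Whether the reads were counted by strand is not given in the sources used here. Reads from any stretch where exons of CBR3-AS1 and CBR3 overlap may therefore not be told apart, and overlap of the exons was not examined. CBR1 is overlapped on the opposite strand by SETD4 and CBR1-AS1, which were not analysed here.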
